A study of Mus musculus with 12 samples.

Results

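The angiopoietin, Tie and VEGF system was followed in the lungs of mice with acute lung injury through 10 genes, taken by their symbols from a table of 55414 genes. They were the ligands Angpt1, Angpt2 and Vegfa, the receptors Tek, Tie1, Kdr, Flt1 and Flt4, the phosphatase gene Ptprb and the coreceptor gene Nrp1. All 10 passed the filter for the test, a TPM of 1 or more in 6 or more libraries. TPM, a measure of transcript abundance, divides the reads of a gene by its length and scales each library to a common total, so that levels can be set side by side between genes.

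Angiopoietin-1, made largely by pericytes and other mural cells, binds the receptor Tie2 (encoded by Tek) on endothelium and keeps vessels quiet and tight. Angiopoietin-2 is stored in endothelial cells and opposes that signal in inflamed tissue, Tie1 is the partner receptor without a strong ligand of its own, and the phosphatase VE-PTP (Ptprb) dampens Tie2. VEGF-A, which the alveolar epithelium makes in abundance, drives growth and leak of vessels through VEGFR2 (Kdr), while VEGFR1 (Flt1) binds the same ligand tightly and acts in part as a decoy, VEGFR3 (Flt4) belongs above all to lymphatic vessels, and neuropilin-1 (Nrp1) presents VEGF-A to VEGFR2.

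Whole-lung RNA came from 12 mice on the C57BL/6J background, with 1 library per mouse, and 6 were IL-10 B-WT (called control lungs here) and 6 IL-10 B-KO (called knockout lungs). IL-10 B-KO mice carried a floxed Il10 gene and Mb1-Cre, which acts in the B lineage from its early stages, while the alleles of the IL-10 B-WT controls are not given beyond that name, nor are the ages or the sex of the animals. Mice of both genotypes had received 50 µg of LPS, the bacterial cell wall component, and their lungs were taken on day 4 after perfusion and lavage. Without lungs from mice that had no LPS, the comparison is of genotypes within the injury and not of injured with healthy lung.

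The label of the lung held, since the summed level of 5 lung markers lay between 20200 and 110500 TPM. Il10 itself did not tell the genotypes apart, at 0 to 0.88 TPM in control and 0 to 0.58 TPM in knockout lungs (exact permutation test, 2-sided, p = 0.745), and in whole lung it does not check a deletion limited to B cells. Summed markers of B cells also differed, at 69.0 to 837.4 TPM in control and 7.50 to 82.5 TPM in knockout lungs, and 2 knockout lungs, replicates 2 (82.5 TPM) and 6 (59.7 TPM), stood above the other 4 (at most 17.0 TPM). Among the control lungs, replicate 1 had the highest sum of neutrophil markers (2479 TPM, the next 1092) and replicate 5 the lowest Vegfa. Control replicate 2 held the 837.4 TPM of B cell markers (the next 126.8) and 15.4% of its TPM in immunoglobulin genes. Immunoglobulin genes held 0.248% to 2.19% of the TPM in the other control lungs and 0.00199% to 0.0647% in the knockout lungs. Of the B cell markers, Cd79a lay at 15.3 to 258.6 TPM in control lungs. In knockout replicates 1 to 6 it was 0, 4.35, 0, 0.05, 0 and 5.73 TPM. The genotypes thus differed in RNA of the B lineage beyond Il10, and the part of that in the genes of the system was not tested.

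Angpt1 was the 1 gene of the system that was lower in knockout lungs by the adjusted test, and its mean dropped by 64.6%. In 15 of 22 other analyses Angpt1 did not pass that test. Angpt2, Ptprb, Kdr and Nrp1 were lower without passing it. Tek and Vegfa were lower by less than their spread, and Tie1, Flt1 and Flt4 stood close to their control levels. Differences were tested with limma on log2(TPM + 1), and a call required a log2 fold change of 1 or more in size and an adjusted p of 0.05 or less over 15148 tested genes. By that rule 1 of the 10 genes was called, against 0.495% of all tested genes in either direction and 0.469% in the lower direction. The paper on these lungs had already named Angpt1 among hub genes lower in IL-10 B-KO. The call is therefore not an independent result. At an unadjusted p of 0.05 or less, 5 of 10 were lower and 0 higher, beside 5.71% and 6.83% of all tested genes. Of the 10 log2 fold changes 9 were below 0, as were 36.8% of those of all tested genes, and their median was -0.49, beside 0.10 over all tested genes. In 0 of the 10 genes were the groups free of overlap, which held for 1.02% of all tested genes. The count of 5 was 3 without control replicate 6 or knockout replicate 5, 6 without knockout replicates 2 and 6, and 7 without control replicates 1 and 5. In RNA from whole lung, fewer cells of a type and less RNA per cell cannot be told apart.

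**Figure D1:**
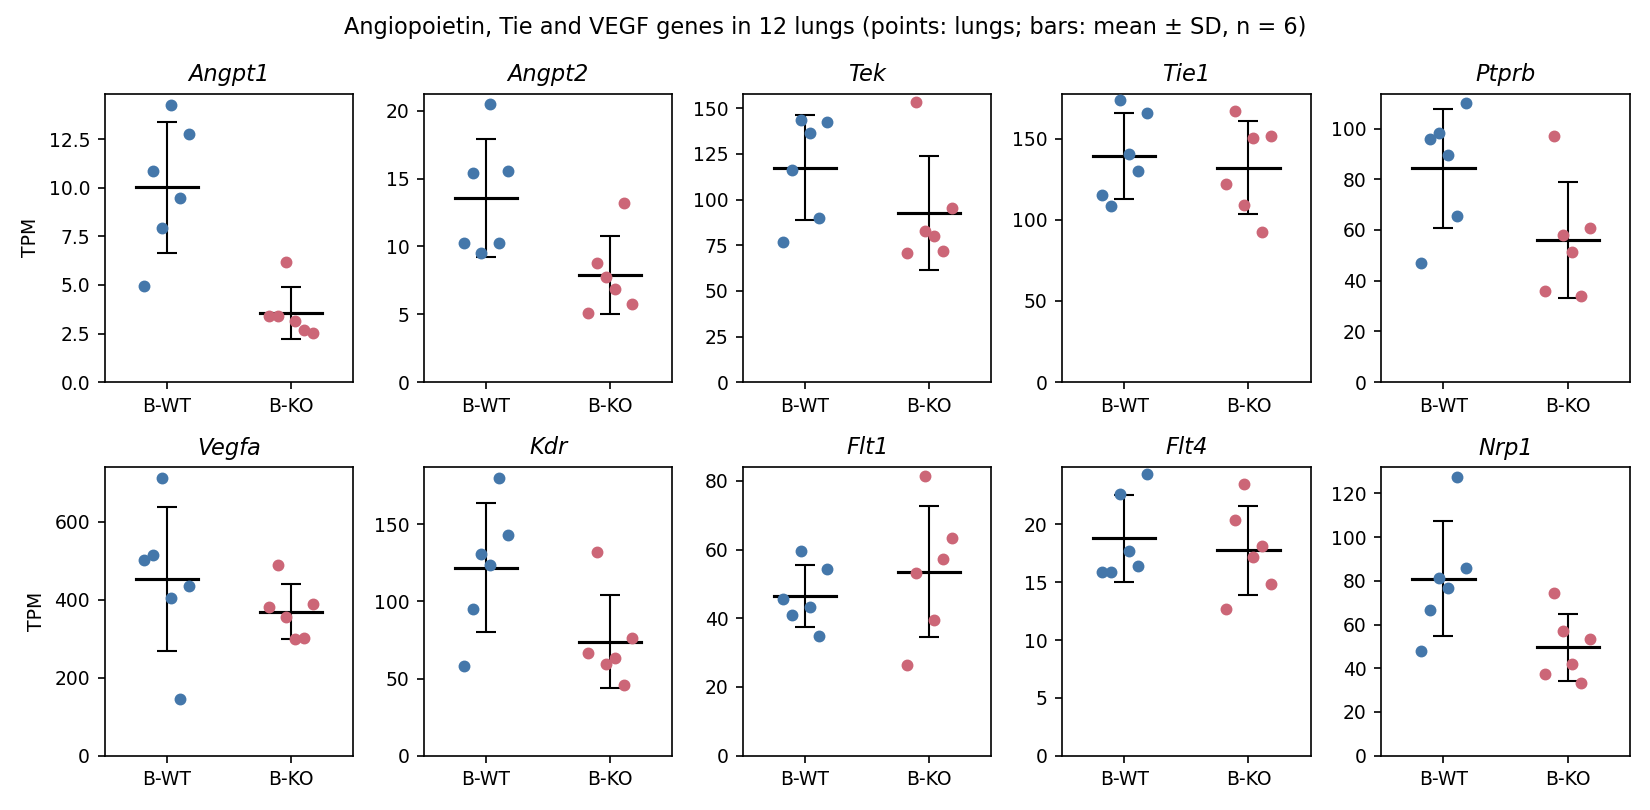
TPM of each of the 10 genes (y axes, from 0) in the 6 IL-10 B-WT lungs (blue) and the 6 IL-10 B-KO lungs (red), with 1 point per lung and bars for the mean ± SD. Angpt1 reached at most 6.16 TPM in IL-10 B-KO lungs while 5 of 6 IL-10 B-WT lungs lay above that level, the groups of Tie1 and Flt4 overlapped, and the knockout range of Vegfa (300.4 to 490.6 TPM) lay inside that of the controls.

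Angpt1 (ENSMUSG00000022309, chr15:42424723-42676977, minus strand, GRCm38) has 9 exons in its coding transcript, which ends in the fibrinogen-like domain that binds Tie2. Its level in control lungs was 4.93 TPM at the lowest, 10.2 at the median and 14.2 at the highest, and in knockout lungs 2.51, 3.26 and 6.16 TPM. The 2 ranges overlapped through control replicate 1 and knockout replicate 3 alone, so that 5 of 6 knockout lungs lay below every control lung and 6 of 6 below the control median. The mean was 10.0 ± 3.37 TPM in control and 3.55 ± 1.33 TPM in knockout lungs (SD, n = 6 per genotype), so that the mean fell by 64.6%. The log2 fold change was -1.26 with a standard error of 0.245 (95% confidence interval -1.78 to -0.73, limma adjusted p = 0.0391), and the exact permutation test gave p = 0.00433, where 0.00216 is the smallest p that 6 against 6 lungs allow. The size of the fall kept between -1.47 and -1.15 over 22 other analyses, with an unadjusted limma p of at most 0.0017 in each, but the adjusted p crossed the threshold in many of them.

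The call for Angpt1 held without control replicate 1 (limma adjusted p = 0.00657) and without knockout replicate 2 (0.0497) or 3 (0.0374). Without control replicate 2, 3, 4, 5 or 6 the limma adjusted p was 0.0909, 0.0632, 0.103, 0.0807 and 0.102, and without knockout replicate 1, 4, 5 or 6 it was 0.102, 0.0838, 0.115 and 0.0967. Without both knockout replicates 2 and 6 it was 0.139 at a log2 fold change of -1.17. It was 0.116 with no filter, 0.0624 with the TPM rescaled without immunoglobulin genes, 0.0683 with quantile normalization and 0.0799 with median centring. The adjusted p also depends on the other genes, and the number of genes called in all ranged from 19 to 604 when 1 library was left out. An antisense gene, Gm17473, shares 737 exon bases with Angpt1, and since the strand of the libraries is not given in the sources used here its reads could be exchanged with those of Angpt1. It was listed at no more than 0.450 TPM in any lung.

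Angpt2 (ENSMUSG00000031465, chr8:18690263-18741562, minus strand) was lower too, with a smaller difference. It measured 9.49 TPM at the lowest, 12.8 at the median and 20.5 at the highest in control lungs, and 5.12, 7.30 and 13.2 TPM in knockout lungs. Only knockout replicate 5, the highest of its group, reached into the control range. Its log2 fold change was -0.72 with a standard error of 0.239 (limma unadjusted p = 0.00985, adjusted p = 0.287, exact permutation p = 0.0195). The ligand that opposes Angpt1 was thus not higher in the knockout lungs at the level of its RNA. The gene lies inside Mcph1 on the opposite strand without sharing exon bases, and Mcph1 reached at most 3.05 TPM.

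Tek (ENSMUSG00000006386, chr4:94739289-94874976, plus strand), the receptor of both angiopoietins, showed no difference beyond its spread. Its levels were 76.6, 126.5 and 143.5 TPM (lowest, median, highest) in control lungs and 71.0, 81.4 and 153.5 TPM in knockout lungs. The highest of all 12 lungs was knockout replicate 2, while the other 5 knockout lungs reached 95.6 TPM at most. The estimate for Tek was a log2 fold change of -0.36 with a standard error of 0.221 (95% confidence interval -0.83 to 0.12, limma adjusted p = 0.498, exact permutation p = 0.154). Without knockout replicate 2 it was -0.51 (limma unadjusted p = 0.0200, adjusted p = 0.186), and without control replicate 1 it was -0.47 (unadjusted p = 0.0450, adjusted p = 0.189).

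Tie1 (ENSMUSG00000033191, chr4:118471191-118490061, minus strand), on the same chromosome as Tek, had 108.2, 135.4 and 173.7 TPM in control lungs and 92.3, 136.1 and 167.3 TPM in knockout lungs (lowest, median, highest). The medians almost coincided, and 3 of 6 knockout lungs lay below the control median. The log2 fold change of Tie1 was -0.08 (95% confidence interval -0.47 to 0.31, limma adjusted p = 0.858), so that a difference of more than about 0.5 on this scale lay outside the interval, and it was 0.02 without knockout replicate 5.

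Ptprb (ENSMUSG00000020154, chr10:116275523-116389535, plus strand), whose product removes phosphate from Tie2, was measured at 47.1, 92.7 and 110.0 TPM in control lungs and 34.1, 54.6 and 97.0 TPM in knockout lungs (lowest, median, highest). Of the knockout lungs 5 of 6 lay below the control median and 2 below every control lung, while replicate 2 again stood among the controls. Its estimate was a log2 fold change of -0.61 with a standard error of 0.269 (limma unadjusted p = 0.0396, adjusted p = 0.379, exact permutation p = 0.0736). The unadjusted p was above 0.05 without any 1 of 7 lungs, namely control replicates 2, 3, 4 and 6 and knockout replicates 1, 4 and 5, up to 0.0933.

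Vegfa (ENSMUSG00000023951, chr17:46016993-46032369, minus strand) had the highest TPM of the 10 genes in both genotypes. It ranged from 145.4 TPM over a median of 469.5 to 712.7 TPM in control lungs, and from 300.4 over 368.6 to 490.6 TPM in knockout lungs. Both the lowest and the highest value of the 12 came from control lungs, so that the knockout range lay wholly inside the control range. For Vegfa the log2 fold change was -0.17 with a standard error of 0.311 (95% confidence interval -0.84 to 0.50, limma adjusted p = 0.822, exact permutation p = 0.660). Without control replicate 5, the lowest, it was -0.47 (limma unadjusted p = 0.0199, adjusted p = 0.349), and without control replicate 3, the highest, it was -0.0099 (adjusted p = 0.990). It was also -0.39 with quantile normalization, -0.28 with median centring and -0.55 with array quality weights (limma adjusted p of 0.404, 0.489 and 0.119). The gene has 8 coding transcripts in the annotation, which a value per gene adds up.

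Kdr (ENSMUSG00000062960, chr5:75932827-75978458, minus strand), the main signalling receptor of VEGF-A, was measured at 58.0, 127.0 and 180.4 TPM in control lungs and 46.0, 64.8 and 132.3 TPM in knockout lungs (lowest, median, highest). The median of the knockout lungs was near the lowest control lung, and only knockout replicate 2 lay above the control median. Kdr had a log2 fold change of -0.71 with a standard error of 0.285 (limma unadjusted p = 0.0264, adjusted p = 0.350, exact permutation p = 0.0541). Without knockout replicate 2 it was -0.89 (unadjusted p = 0.00445, adjusted p = 0.107), and the unadjusted p lay between 0.0519 and 0.0629 without control replicate 5 or 6 or knockout replicate 3 or 5.

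Flt1 (ENSMUSG00000029648, chr5:147561604-147726011, minus strand) was the 1 gene of the system with a mean above that of the controls. Its levels were 34.8, 44.5 and 59.5 TPM in control lungs and 26.4, 55.3 and 81.3 TPM in knockout lungs (lowest, median, highest), and the knockout lungs held both extremes. The log2 fold change of 0.14 (95% confidence interval -0.38 to 0.66, limma adjusted p = 0.807) was near the 0.10 of the median tested gene and was -0.01 with quantile normalization and -0.09 with array quality weights, so that no direction can be given. A value per gene does not separate the membrane receptor from the soluble form of VEGFR1.

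Flt4 (ENSMUSG00000020357, chr11:49609263-49652739, plus strand), at 15.8, 17.0 and 24.4 TPM in control and 12.7, 17.6 and 23.4 TPM in knockout lungs (lowest, median, highest), did not differ beyond its spread. Its log2 fold change was -0.08 (95% confidence interval -0.46 to 0.30, limma adjusted p = 0.851), and it was 0.00 without knockout replicate 1. Markers of lymphatic endothelium, the vessels that depend on Flt4, were lower in 4 of 4 tested genes with 0 at an unadjusted limma p of 0.05 or less. The sums of the 5 listed markers were close, with medians of 421.6 TPM in control and 419.8 TPM in knockout lungs. They ranged from 195.5 to 483.9 TPM in control and from 195.6 to 649.3 TPM in knockout lungs.

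Nrp1 (ENSMUSG00000025810, chr8:128358604-128503363, plus strand) was lower in a manner close to Kdr. It measured 47.8, 79.0 and 127.4 TPM in control lungs and 33.3, 47.6 and 74.4 TPM in knockout lungs (lowest, median, highest). All 6 knockout lungs lay below the control median and 3 of them below every control lung. Nrp1 had a log2 fold change of -0.69 with a standard error of 0.241 (95% confidence interval -1.21 to -0.17, limma unadjusted p = 0.0130, adjusted p = 0.304, exact permutation p = 0.0260). For Nrp1 and for Angpt2 the unadjusted p was at most 0.05 in each of 22 other analyses.

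**Figure D2:**
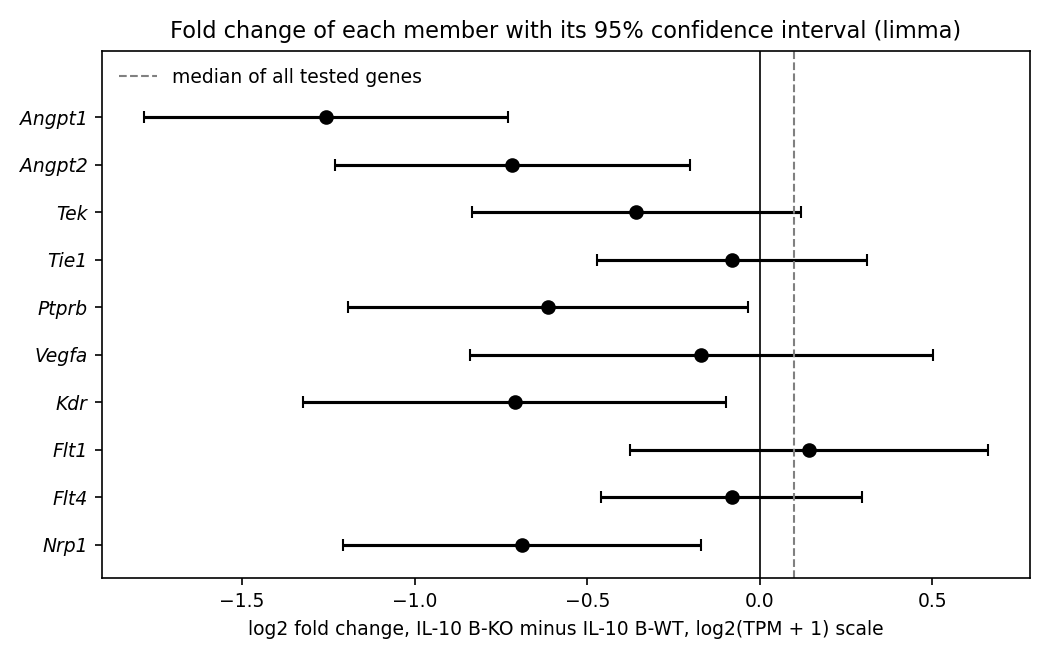
Log2 fold change of each of the 10 genes (x axis, IL-10 B-KO minus IL-10 B-WT on the log2(TPM + 1) scale) with its 95% confidence interval from limma, 6 lungs per genotype, and the median of all tested genes at 0.10 as a dashed line. The intervals of Angpt1, Angpt2, Ptprb, Kdr and Nrp1 lie below 0 before adjustment, and that of Flt1, at 0.14 (-0.01 with quantile normalization), spans 0.

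Kdr and Flt1 bind the same ligand, lie on the same chromosome and had unlike levels, so the 250 bases upstream of their RefSeq start sites (GRCm38.p6) are shown next to those of Tek, the angiopoietin receptor. They are written 5′ to 3′ on the strand of the gene, with GGAA, the core of the sites bound by ETS factors of endothelium, or its reverse complement TTCC in capitals.
Tek (chr4:94739039-94739288, plus strand): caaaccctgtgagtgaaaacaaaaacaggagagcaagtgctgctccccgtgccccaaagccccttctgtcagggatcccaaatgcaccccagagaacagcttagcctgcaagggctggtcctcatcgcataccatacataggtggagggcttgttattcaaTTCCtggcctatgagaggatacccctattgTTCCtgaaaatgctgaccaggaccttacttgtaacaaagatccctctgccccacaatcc
Kdr (chr5:75978456-75978705, minus strand): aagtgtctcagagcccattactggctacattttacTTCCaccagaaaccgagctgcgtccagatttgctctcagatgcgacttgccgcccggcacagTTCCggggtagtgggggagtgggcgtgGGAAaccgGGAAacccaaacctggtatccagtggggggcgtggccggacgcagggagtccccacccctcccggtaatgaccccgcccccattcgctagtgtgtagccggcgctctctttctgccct
Flt1 (chr5:147726012-147726261, minus strand): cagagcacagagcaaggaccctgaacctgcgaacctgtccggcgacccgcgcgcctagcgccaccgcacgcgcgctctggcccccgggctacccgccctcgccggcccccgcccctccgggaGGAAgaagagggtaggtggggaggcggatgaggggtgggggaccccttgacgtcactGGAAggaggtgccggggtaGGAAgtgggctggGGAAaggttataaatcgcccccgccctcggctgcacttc
Kdr, Flt1 and Nrp1 each held 4 matches, Tek and Flt4 each 2, Vegfa 6 and Tie1 7. By the gene spans given above, the windows of Nrp1 and Flt4 lay inside the gene, and most of the Tie1 window did. Of 32851 upstream windows of the same length 76.8% held 2 or more, 33.4% held 4 or more, 8.69% held 6 or more and 3.82% held 7 or more. The letters ACGTG, found in sites of hypoxia-inducible factors, were absent from the windows of all 7 genes of the system that could be matched. They were present in 16.6% of all windows on either strand, so that absence is the usual outcome. The related letters GCGTG were not searched, and they or their reverse complement are present in the Kdr and Flt1 windows shown. Sites outside these 250 bases were not searched either, so the absence of ACGTG does not show that a gene lacks such a site. The GC content was 51.2% for Tek, 61.6% for Kdr and 70.4% for Flt1.

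The order of the levels differed little between the genotypes. In control lungs the mean TPM ran from Vegfa (453.0 ± 184.9, SD, n = 6) over Tie1 (139.0 ± 26.5), Kdr (121.8 ± 41.9), Tek (117.5 ± 28.7), Ptprb (84.4 ± 23.4), Nrp1 (81.0 ± 26.5), Flt1 (46.4 ± 9.06), Flt4 (18.8 ± 3.75) and Angpt2 (13.6 ± 4.34) to Angpt1 (10.0 ± 3.37). Neighbours in that order overlapped in their ranges except Flt1 and Flt4. Kdr exceeded Tek in 2 of 6 control lungs only, and Ptprb exceeded Nrp1 in 4 of 6.
In knockout lungs the mean TPM ran from Vegfa (369.9 ± 70.4, SD, n = 6) over Tie1 (132.2 ± 28.8), Tek (92.5 ± 31.2), Kdr (73.9 ± 30.3), Ptprb (56.1 ± 22.9), Flt1 (53.6 ± 19.0), Nrp1 (49.6 ± 15.2), Flt4 (17.8 ± 3.84) and Angpt2 (7.90 ± 2.90) to Angpt1 (3.55 ± 1.33). There the ranges of neighbours overlapped except for Vegfa and Tie1 and for Nrp1 and Flt4. Tek exceeded Kdr in 6 of 6 knockout lungs, while Flt1 and Nrp1, whose places were exchanged, each led in 3 of 6. Angpt2 exceeded Angpt1 in 6 of 6 lungs of either genotype.

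Ratios of TPM between 2 genes of a lung do not depend on the total to which a library is scaled. The tests used log2(TPM + 1), where the added 1 makes that only approximate for low genes such as Angpt1. The balance of the 2 angiopoietins was read from the ratio of their genes. Angpt1 over Angpt2 was 0.481, 0.704, 0.835, 0.695, 0.924 and 0.818 in control replicates 1 to 6 and 0.662, 0.389, 0.798, 0.455, 0.205 and 0.435 in knockout replicates 1 to 6, so that 4 of 6 knockout lungs lay below every control lung. On the scale of log2(TPM + 1) the difference of that ratio was -0.54 with a standard error of 0.265 (exact permutation p = 0.0433, adjusted over 14 ratios p = 0.152). Without knockout replicate 5 it was -0.34 (exact permutation p = 0.0887), and the p was above 0.05 without any 1 of control replicates 2 to 6 or knockout replicates 2, 4, 5 and 6, up to 0.0996. Angpt1 over its receptor gene Tek was 0.0552 to 0.106 in control and 0.0222 to 0.0745 in knockout lungs, with 5 of 6 knockout lungs below every control lung on the log scale. Its difference was -0.90 with a standard error of 0.268 (exact permutation p = 0.00866, adjusted over 14 ratios p = 0.121). With 0.1 added to the TPM in place of 1, the difference was -0.67 for Angpt1 over Angpt2 (exact permutation p = 0.0346). For Angpt1 over Tek it was then -1.10 (exact permutation p = 0.00866).

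Of the 2 receptors of VEGF-A, Flt1 stood higher relative to Kdr in 3 knockout lungs than in any control lung. Flt1 over Kdr was 0.787, 0.431, 0.456, 0.350, 0.193 and 0.380 in control replicates 1 to 6 and 0.398, 0.403, 1.37, 0.626, 1.25 and 0.830 in knockout replicates 1 to 6. Flt1 thus exceeded Kdr in knockout replicates 3 and 5 and in 0 of 6 control lungs, but the difference of 0.85 on the log2 scale (standard error 0.408) had an exact permutation p of 0.0758 and an adjusted p of 0.169. Without control replicate 1 it was 1.05 (exact permutation p = 0.0325), and without knockout replicate 1 or 2 it was 1.02 (exact permutation p = 0.0390 for each). Vegfa over Kdr ranged from 0.806 to 8.67 in control and from 3.71 to 6.56 in knockout lungs and did not differ beyond that spread (exact permutation p = 0.333). In the exact permutation test 0 of the 14 ratios passed after adjustment and 4 had an unadjusted p of 0.05 or less, a count that was 2 without control replicate 2 or 5 or knockout replicate 4.

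**Figure D3:**
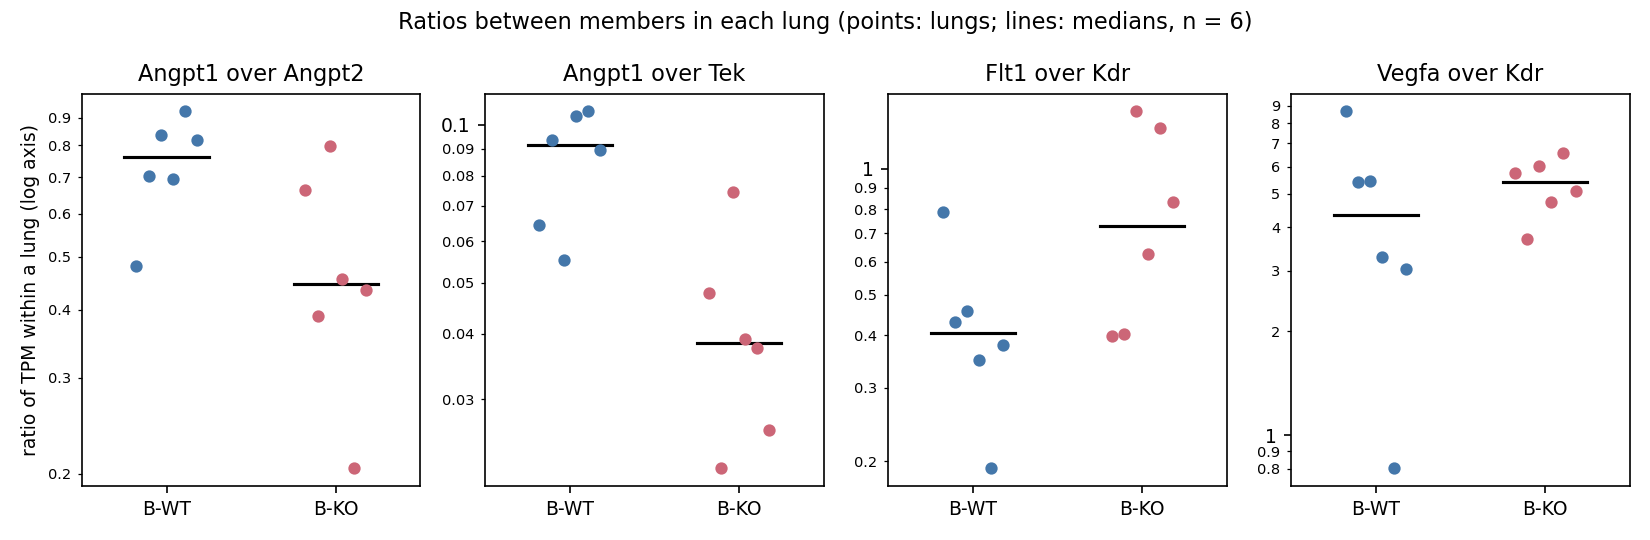
Ratio of the TPM of 2 genes within each lung (y axes, log scale) in 6 IL-10 B-WT (blue) and 6 IL-10 B-KO (red) lungs, with 1 point per lung and a line at the median. Angpt1 over Tek is at most 0.0745 in the knockout lungs, Flt1 over Kdr exceeds 1 in 2 knockout lungs, and Vegfa over Kdr spans 0.806 to 8.67 in the control lungs.

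Markers of the cells that make and receive these signals were set beside the 10 genes. Of 14 markers of endothelium that are not among the 10, 13 were lower and 1 higher, with a median log2 fold change of -0.16. Eng (-0.57, limma adjusted p = 0.378) was the 1 marker whose unadjusted p reached 0.05. Their summed level was 3094 to 7160 TPM in control and 3109 to 6390 TPM in knockout lungs, and the lowest of the 14, Tal1, had a mean of 11.2 and 10.2 TPM. Relative to the mean of these markers within each lung, Nrp1 differed by -0.47 (standard error 0.189, exact permutation p = 0.0325, adjusted over 14 ratios p = 0.152), with 5 of 6 knockout lungs below every control lung. The exact permutation p for Nrp1 was 0.0563 to 0.0649 without any 1 of control replicates 2 and 5 and knockout replicates 1, 4 and 5. Kdr differed by -0.49 on the same scale (standard error 0.184, exact permutation p = 0.0281, adjusted p = 0.152), Angpt2 by -0.50 (p = 0.104 in the exact permutation test), Ptprb by -0.39 (exact permutation p = 0.0801), and Tek by -0.14 (exact permutation p = 0.344). Differences above 0 came from Flt1 (0.36, exact permutation p = 0.238), Tie1 (0.14, exact permutation p = 0.210) and Flt4 (0.14, exact permutation p = 0.491). Without knockout replicate 5 the exact permutation p was 0.0260 for Angpt2 (-0.67) and 0.0476 for Tie1 (0.21). For Ptprb it was 0.0381 without knockout replicates 2 and 6 (-0.52) and 0.0286 without control replicates 1 and 5 (-0.57).

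Markers of 2 kinds of lung capillary cell were lower beside Kdr. All 5 markers of aerocytes, the large capillary cells at the gas exchange surface that carry much Kdr, were lower, with a median of -0.94 and 4 of 5 at an unadjusted limma p of 0.05 or less. Among them were Tbx2 (128 ± 33.0 against 67.2 ± 20.5 TPM, SD, n = 6, log2 fold change -0.94, limma adjusted p = 0.124) and Ednrb, the endothelin B receptor gene (-1.55, adjusted p = 0.353). Their summed level was 260 to 1070 TPM in control and 207.8 to 715.2 TPM in knockout lungs. The 3 markers of general capillary cells were lower with a median of -0.51, and their sums were 640.1 to 1439 against 581.6 to 1803 TPM. The part of these cells in the levels of Kdr and Nrp1 was not tested.

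Markers of pericytes, one of the mural cells from which Angpt1 comes, were lower as well. All 10 had a log2 fold change below 0 with a median of -0.99, 6 of 10 had an unadjusted limma p of 0.05 or less, and 3 were called. These were Trpc6, a cation channel gene (8.96 ± 2.53 against 3.05 ± 0.929 TPM, SD, n = 6, log2 fold change -1.29, limma adjusted p = 0.0195), Notch3 (-1.78, limma adjusted p = 0.0236) and Pdgfrb, the receptor gene for the pericyte growth factor PDGF-B (-1.44, limma adjusted p = 0.0456). Pdgfrb, like Angpt1, had been reported as lower by the paper on these lungs. Summed over the 10 markers the level was 352.9 to 712.5 TPM in control and 197.8 to 376.4 TPM in knockout lungs, and 5 of 6 knockout lungs lay below every control lung. Relative to the mean of these markers within each lung, Angpt1 differed by -0.37 (standard error 0.190, exact permutation p = 0.0844, adjusted over 14 ratios p = 0.169), beside its own difference of -1.26. Without control replicate 1 that ratio differed by -0.46 (exact permutation p = 0.0260). The part of pericytes in the level of Angpt1 was not tested beyond that ratio. The call was lost for Trpc6 without knockout replicate 1 or 5 (limma adjusted p of 0.0574 and 0.0580), for Notch3 without any 1 of control replicates 2, 4, 5 and 6 and knockout replicates 1, 3 and 5 (up to 0.0694), and for Pdgfrb without any 1 lung other than control replicates 1 and 3 (up to 0.120). All 3 calls were also lost with no filter, quantile normalization or median centring (limma adjusted p of 0.0536 to 0.129).

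Markers of smooth muscle, the other mural cell of vessels, were lower as well, in 5 of 5 with a median of -0.91 and 3 of 5 at an unadjusted limma p of 0.05 or less. Among them were Myh11, a smooth muscle myosin gene (-1.03, limma adjusted p = 0.357), and Acta2, smooth muscle actin (-0.91, limma adjusted p = 0.389), and the sums were 240.4 to 992.0 TPM in control and 106.4 to 520.4 TPM in knockout lungs. The 5 markers of fibroblasts were 2 higher and 3 lower, with 1 (Tcf21, -0.92, limma adjusted p = 0.177) at that threshold. The part of these cells in the level of Angpt1 was not tested.

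Markers of epithelium and of leukocytes went in both directions, and of those of B cells 7 of 7 were lower with a median of -2.03. The 5 markers of alveolar type 2 cells were higher with a median of 0.74 and 3 of 5 at an unadjusted limma p of 0.05 or less, and their sums were 3094 to 15870 against 10150 to 18580 TPM. Markers of alveolar type 1 cells, in which Vegfa is high, were 2 higher and 4 lower with 0 of 6 at an unadjusted limma p of 0.05 or less, and Vegfa relative to them differed by -0.15 (exact permutation p = 0.379). The 5 markers of platelets, which carry Angpt1 and VEGF-A, were 3 higher and 2 lower with 0 of 5 at that threshold. All 7 neutrophil markers were higher at an unadjusted p of 0.05 or less, with a median of 1.87 and sums of 275.6 to 2479 against 1041 to 7527 TPM, and the 7 of macrophages and monocytes were higher with a median of 1.48 (87.6 to 1713 against 203 to 1862 TPM). All values share 1 total per library, and the part of these cells in the lower TPM of the 10 genes was not tested. With each library centred on the median of its genes, Angpt1 had a log2 fold change of -1.36 and Angpt2 of -0.82.

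**Figure D4:**
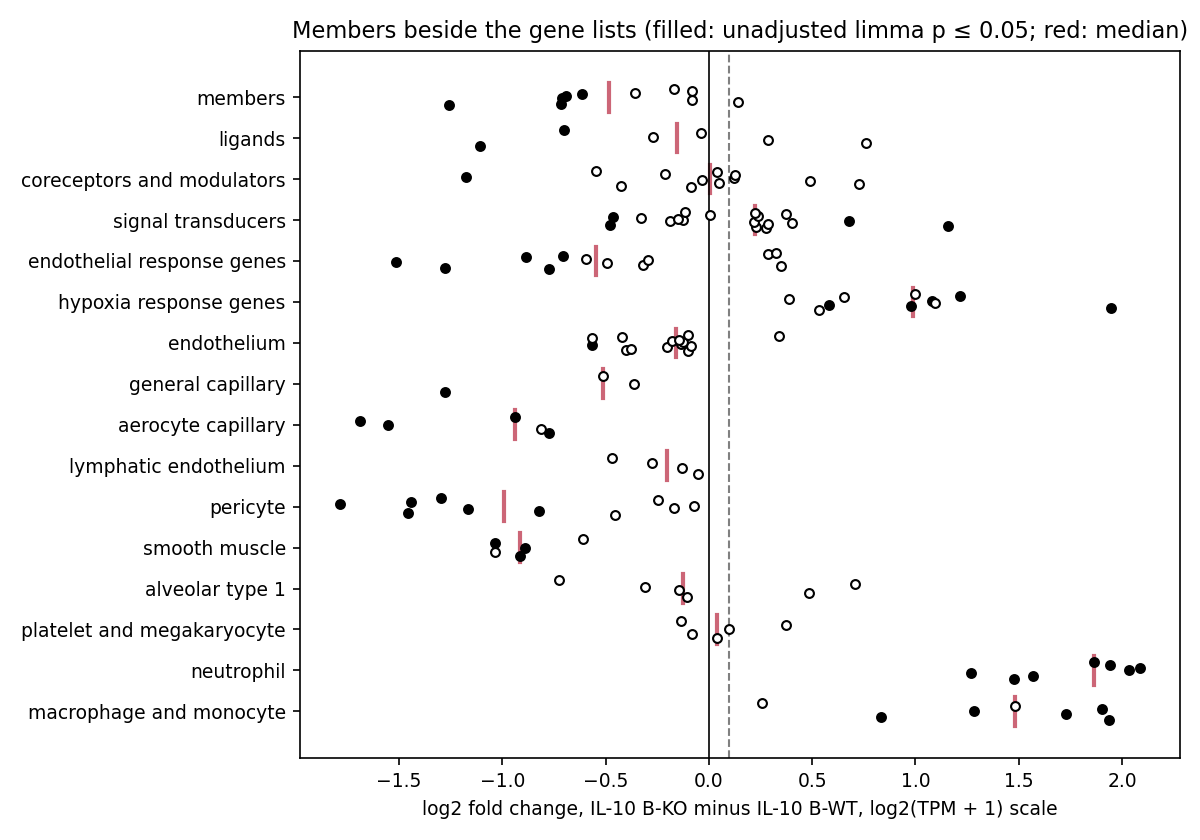
Log2 fold change (x axis, IL-10 B-KO minus IL-10 B-WT on the log2(TPM + 1) scale) of each tested gene of the system, of the other genes of its pathway and of cell type marker lists (rows), with filled points for an unadjusted limma p of 0.05 or less and a red line at the median of a list. The median of the 10 genes is -0.49, that of the pericyte markers -0.99 and that of the endothelium markers -0.16, and the dashed line marks the 0.10 of all tested genes.

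The wider pathway held 50 other genes, of which 47 were tested, 26 lower and 21 higher with a median of -0.09. At an unadjusted limma p of 0.05 or less, 10 were lower and 2 higher, beside the 5.71% and 6.83% of all tested genes, and 1 passed the adjusted test. That count of 12 was 7 without control replicate 4. Among the other ligands 2 of 6 tested genes were lower at that threshold, Angptl2, an angiopoietin-like secreted protein gene (30.2 against 14.7 TPM, log2 fold change -1.11, limma adjusted p = 0.119), and Vegfd, a ligand of VEGFR3 (8.97 against 5.48 TPM, -0.70, limma adjusted p = 0.340). The gene that passed was Sdc2, which encodes the heparan sulfate proteoglycan syndecan-2 and binds VEGF-A by its sugar chains. It fell from 22.8 ± 5.52 to 9.69 ± 2.86 TPM (SD, n = 6), a difference of -1.17 on the log2 scale with a standard error of 0.229 (limma adjusted p = 0.0392) and without overlap between the genotypes (exact permutation p = 0.00216, the smallest possible). The limma adjusted p of Sdc2 was above 0.05, at up to 0.108, without any 1 of 9 lungs, the exceptions being control replicates 1 and 3 and knockout replicate 2, and it was 0.110 with no filter, 0.0600 with rescaling without immunoglobulin genes, 0.0832 with quantile normalization and 0.0932 with median centring.

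Signal transducers downstream of the receptors went both ways, with 11 higher and 7 lower of 18. Ptk2, the focal adhesion kinase gene (-0.47, limma unadjusted p = 0.0170), and Foxo1, the transcription factor that Tie2 signalling restrains (-0.48, unadjusted p = 0.0247), were lower, and Nos3, the endothelial nitric oxide synthase gene (0.68, unadjusted p = 0.0258), and Dok2, an adaptor gene also used by blood cells (1.16, unadjusted p = 0.0277), were higher, with limma adjusted p-values of 0.328 to 0.353. Of 12 endothelial response genes 9 were lower. At an unadjusted limma p of 0.05 or less stood 5 of them, including Apln and Aplnr, already counted among the capillary markers above. The one with the smallest p, Klf2, a flow-induced transcription factor of endothelium, went from 431.2 ± 128.2 to 225.0 ± 29.3 TPM (SD, n = 6, log2 fold change -0.89, limma adjusted p = 0.0961). Aplnr, the apelin receptor gene (44.9 ± 4.91 against 22.8 ± 20.9 TPM, -1.28, limma adjusted p = 0.190), and Esm1, a gene of tip cells that VEGF-A induces (-1.51, limma adjusted p = 0.361), followed. The 10 hypoxia response genes, read beside Vegfa as a gene of the same kind, were 10 of 10 higher with a median of 0.99 and 5 at an unadjusted limma p of 0.05 or less, 0 of them called. Their sums overlapped, at 194.7 to 1018 TPM in control and 345.4 to 1474 TPM in knockout lungs. The highest control sum came from replicate 1, which also had the highest neutrophil sum of the controls. The part of leukocytes in these genes was not tested. Vegfa, at -0.17, was not among the higher genes.

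How the 10 genes varied together was taken from log2(TPM + 1) with each genotype centred on its mean, over 12 lungs. Of 45 pairs 37 had Pearson's r above 0, with a median of 0.363, and by r 2 passed adjustment over the 45. Tek and its phosphatase gene Ptprb had r = 0.939 (permutation p = 0.0001, adjusted 0.0045) and Spearman's rho = 0.937 (permutation p = 0.00014, adjusted 0.0063), with r = 0.870 without the 2 lungs farthest from the median of Tek. Within control lungs r was 0.946 and within knockout lungs 0.936. Kdr and its coreceptor gene Nrp1 had r = 0.903 (permutation p = 0.00023, adjusted 0.00517) and rho = 0.797 (permutation p = 0.00266, adjusted 0.0399), with r = 0.822 without the 2 lungs farthest from the median of Kdr, and r was 0.965 and 0.830 within the genotypes. Tie1 and Kdr passed by rho alone (rho = 0.839, permutation p = 0.00206, adjusted 0.0399). Their r was 0.698 (permutation p = 0.0145, adjusted 0.129). The 12 points share the library totals, and the endothelium markers also varied between the lungs.

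For the 2 receptors of VEGF-A no correlation was detected. Kdr and Flt1 had r = -0.045 (permutation p = 0.892, adjusted 0.931), with rho = 0.042 (permutation p = 0.904) and r = -0.123 without the 2 lungs farthest from the median of Kdr. Angpt1 and Angpt2 had r = 0.428 (permutation p = 0.187, adjusted 0.443), rho = 0.448 (permutation p = 0.165) and r = 0.457 without the 2 farthest lungs.
Against the means of 5 marker lists, 3 of 50 relations passed adjustment. Tie1 followed the endothelium markers (r = 0.821, permutation p = 0.00199, adjusted 0.0417, rho = 0.860, permutation p = 0.00095, r = 0.861 without the 2 farthest lungs). Kdr followed the same markers (r = 0.846, permutation p = 0.0025, adjusted 0.0417, rho = 0.888, permutation p = 0.00234, r = 0.675 without the 2 farthest lungs) and those of aerocytes (r = 0.894, permutation p = 0.00086, adjusted 0.0417, rho = 0.853, permutation p = 0.00149, r = 0.748 without the 2 farthest lungs). Among relations that did not pass, Kdr against the neutrophil markers had r = -0.757 (permutation p = 0.0066, adjusted 0.0825). Tek and Ptprb against the endothelium markers had r = 0.806 and 0.711 (permutation p = 0.00868 and 0.013, adjusted 0.0868 and 0.0929). Vegfa against the alveolar type 1 markers had r = 0.864 (permutation p = 0.0106, adjusted 0.0883, r = 0.345 without the 2 farthest lungs). Angpt1 against the pericyte markers had r = 0.679 (permutation p = 0.0184, adjusted 0.115, rho = 0.678, permutation p = 0.0234, r = 0.623 without the 2 farthest lungs).

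**Figure D5:**
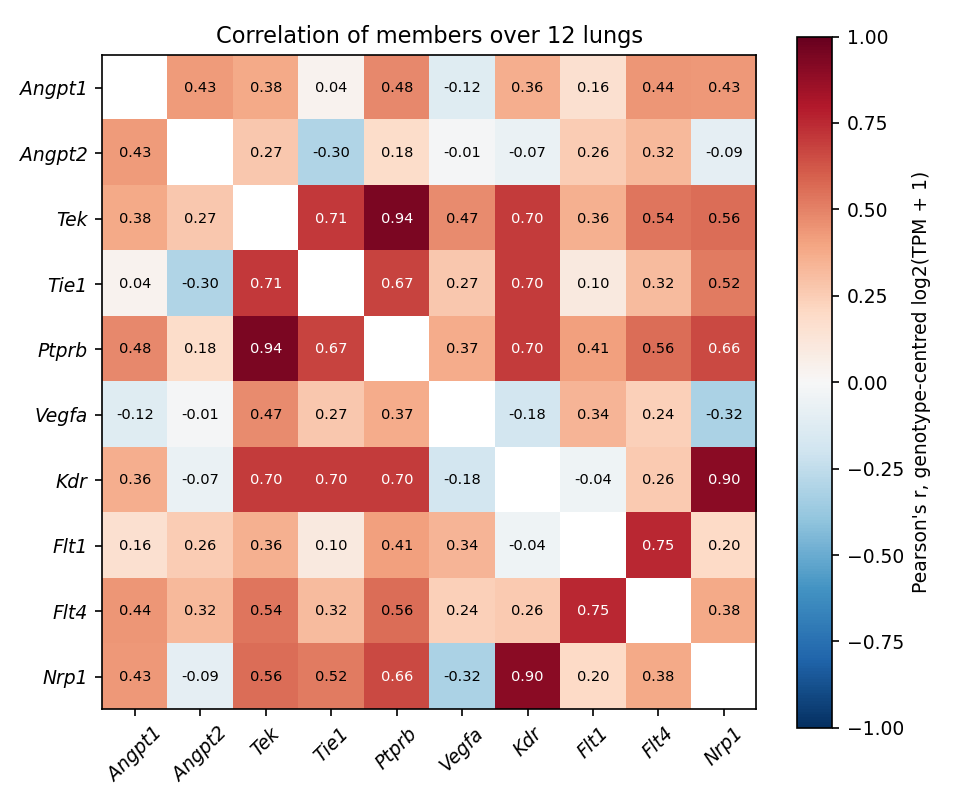
Pearson's r between each pair of the 10 genes (rows and columns) over 12 lungs, on log2(TPM + 1) centred within each genotype, from blue (-1) to red (1). Tek with Ptprb (0.939) and Kdr with Nrp1 (0.903) are the highest of the 45 pairs, and Kdr with Flt1 is near 0 (-0.045).

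The genes most like each of 5 members of the system in that variation were read from 11137 candidates over the 12 lungs, as a description. Angpt1 was nearest to Tmem59 (r = 0.909), Dipk2a (0.887) and Cdkn1c (0.878), of which Dipk2a was also lower (log2 fold change -1.11, limma adjusted p = 0.0429) and Tmem59 was not (0.04). Angpt2 was nearest to Bag2 (0.855), Gm33228 (0.851) and Lipg, the endothelial lipase gene (0.813). Tek was nearest to Phlpp1 (0.957), Nbea (0.954) and Sgip1 (0.947), and Vegfa to Gramd2 (0.970), Cracr2a (0.968) and Otud7b (0.967). Kdr was nearest to Sema6a (0.979), Mcc (0.977) and Tspan12 (0.971), whose log2 fold changes of -1.04, -0.82 and -0.77 lay near its own -0.71 without passing the adjusted test.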

How the data were processed

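RNA of 12 lungs, 6 per genotype, was sequenced. The authors deposited 1 table of TPM per gene, computed with RSEM. The submitters' processing notes also name fastp and HISAT, without versions, and the genome GRCm38.p5. Library preparation followed Illumina protocols, and whether strand was kept is not given in the sources used here. TPM keep no depth, so no counting interval or detection limit can be given, and the precision rests on the 6 lungs per genotype. Columns were assigned to samples by their names, and none was left over.

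The 10 genes and the gene lists were chosen with earlier results of these data known. The genes named are all 10 members, up to 4 tested genes per list with the smallest p, and the 3 genes most like a member. Others were named after their values were seen. Differential expression was tested, 2-sided, with limma 3.58.1 (trend) in R 4.3.3 on log2(TPM + 1), in a model of genotype alone. The 15148 genes that reached a TPM of 1 in 6 or more libraries were tested, with Benjamini-Hochberg adjustment. Fold changes of low genes are understated on this scale. Single values and 14 log2 ratios were compared by 2-sided exact permutation tests over the lungs, and correlations by 100000 permutations within genotypes. The ratios use log2(TPM + 1) of each gene, except where a ratio of TPM is given.

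Coordinates, exons and overlapping genes came from GENCODE M21 on GRCm38. Upstream sequences came from RefSeq on GRCm38.p6, which held 7 of the 10 genes. The letters searched were GGAA and ACGTG on both strands, which do not overlap in the windows shown. SciPy 1.17.1, NumPy 2.4.6 and pandas 2.3.3 under Python 3.11.15 served for the rest, and matplotlib 3.10.9 for the figures. Each choice was varied singly. The pseudocount was set to 0.1, the filter was dropped or replaced by a mean TPM of 5, and the libraries were rescaled with immunoglobulin genes removed, quantile normalized, centred on their medians or given quality weights. The replicate number was entered as a block, and libraries were left out 1 at a time. Leaving out IL-10 B-WT replicates 1 and 5, or IL-10 B-KO replicates 2 and 6, was added after the data were seen.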

Additional observations from a re-analysis of the deposited data

Results flagged for a closer look

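In 48 groups of 6 lungs examined (each gene and ratio in each genotype), 3 held a lung whose gap to its nearest neighbour was large against the range of the group, which chance gives in about 1 of 20 groups. Angpt1 in IL-10 B-KO replicate 3 was 6.16 TPM, the highest of the knockout lungs, with a gap of 0.756 of the range. Without that lung the log2 fold change of Angpt1 was -1.40 (limma adjusted p = 0.0374). Tek in IL-10 B-KO replicate 2 was 153.5 TPM (0.701 of the range), and Kdr in the same lung was 132.3 TPM (0.647 of the range). That lung also had the highest sum of endothelium markers of the knockout lungs, 6390 TPM, and the highest sum of B cell markers among them, 82.5 TPM. Without it the log2 fold changes were -0.51 for Tek (limma adjusted p = 0.186) and -0.89 for Kdr (limma adjusted p = 0.107).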

How the results depend on the processing

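The number of called genes, 1 of 10, was 0 with no filter, with rescaling without immunoglobulin genes, with quantile normalization, with median centring, with the replicate number as a block and without IL-10 B-KO replicates 2 and 6, and 0 to 1 with 1 library left out. Angpt1 kept its direction in 22 of 22 analyses, with limma adjusted p from 0.00499 (array quality weights) to 0.164 (replicate block). With the replicate block the limma adjusted p was 0.0748 for Trpc6, 0.0679 for Notch3, 0.184 for Pdgfrb and 0.144 for Sdc2, and the exact p of the ratio of Angpt1 to Angpt2 was 0.125. With rescaling without immunoglobulin genes the limma adjusted p was 0.0624 for Pdgfrb, and without IL-10 B-KO replicates 2 and 6 it was 0.0585 for Trpc6, 0.107 for Pdgfrb and 0.0866 for Sdc2. With no filter more genes are tested, and for the other settings the cause was not tested. With array quality weights the limma adjusted p was 0.0405 for Ptprb, 0.0432 for Kdr and 0.0341 for Nrp1, each with a log2 fold change above -1. The count at an unadjusted p of at most 0.05, 5 of 10, was 3 to 6 with 1 library left out. The 12 other pathway genes at that threshold were 20 with array quality weights and 7 to 16 with 1 library left out. The 4 ratios were 1 with the replicate block and 2 to 6 with 1 library left out. Directions turned for Flt1 (-0.0069 with quantile normalization, -0.0924 with array quality weights), for Tie1 (-0.15 to 0.0160 with 1 library left out) and for Flt4 (-0.16 to 0.00378). Same-numbered lungs had correlations of -0.292 to 0.046 and share only a number. Over all genes, calls numbered 75, and 6 with no filter, 318 with array quality weights and 45 with the block, and 19 to 604 with 1 library left out. The median log2 fold change of all tested genes was 0.10 and -0.01 with median centring. Depth, cell shares, protein levels and isoforms cannot be read from these values.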

Other observations

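The coding transcripts of the 10 genes differ in length, from 3451 bases for Vegfa to 11911 bases for Ptprb, and TPM divide by that length. The deposited table places 7 of the 10 genes (Angpt1, Angpt2, Tek, Vegfa, Kdr, Flt1 and Flt4) in each of the KEGG pathways named for MAPK, PI3K-Akt, Rap1 and Ras signaling. Tie1, Ptprb and Nrp1 are in none of these 4.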
